A study of Arabidopsis thaliana with 2 samples.

Results

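The 10 genes described here make, sense or switch on the synthesis of salicylic acid in Arabidopsis thaliana. They are the transcription factors SARD1 and CBP60G, the synthesis genes ICS1, EDS5 and PBS3, the EDS1 family genes EDS1, PAD4 and SAG101, and the receptor genes NPR1 and NPR3. They were chosen by locus, with earlier results of these data known, and 12 spots of the array carry them among spots for 25665 loci. Of the 10 genes, 9 were measured, as were 19059 genes in all, under a filter that asks for 1 channel well above background on each array. CBP60G is the gene that did not pass.

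Expression was compared between inflorescence stems of the sgr1 mutant and of wild type (Columbia) on 2 two-colour Agilent arrays. The sgr1 (shoot gravitropism 1) mutant has a lesion in SCARECROW, a GRAS transcription factor that is needed to form the endodermis. Which allele was used is not stated in the labels. Both genotypes were grown on soil at 23 °C under constant light, and no pathogen or hormone treatment is named in the labels. RNA of each genotype came from a pool of at least 10 plants, as segments of 1.5 cm cut 0.3 to 1.8 cm below the tip of stems 5 to 8 cm tall, with side organs taken off. Array 1 carried sgr1 RNA in the Cy3 channel and wild-type RNA in the Cy5 channel, and array 2 the reverse. The labels differ on whether the arrays are separate biological samples, so p-values measure only the spread between these arrays, pooled over genes, which may be technical. SCR itself had 1060 and 889 normalised units in sgr1, against 1862 and 1987 in wild type (1.98-fold lower, limma, adjusted p = 3.3e-07), and whether its probe lies at the lesion is not known here.

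Salicylic acid is the hormone that drives defence against pathogens that feed on living tissue. Most of it is made from chorismate: ICS1 forms isochorismate in the plastid, EDS5 carries it to the cytosol, and PBS3 joins it to glutamate, after which the conjugate breaks down to salicylic acid. SARD1 and CBP60G bind the ICS1 promoter and activate it, and EDS1, which works in pairs with PAD4 or SAG101 below intracellular immune receptors, raises synthesis further. NPR1, a coactivator, and NPR3, a corepressor, bind the hormone and act through TGA transcription factors.

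SARD1 was 2.44-fold lower in sgr1, the largest difference among the 9 measured genes. Of the synthesis genes, EDS5 was 1.43-fold higher, and ICS1 and PBS3 did not pass the test. EDS1 and PAD4 were lower, and SAG101, NPR1 and NPR3 had ratios below 0 that did not pass. Of the 9 measured genes, 1 rose and 3 fell at an adjusted p under 0.05 (limma), against 18.9% of all genes called, 9.92% of them higher and 8.98% lower. The median log2 ratio of sgr1 over wild type was -0.25 over the 9 genes and 0.0048 over all genes. Median centring in place of loess kept the sign of every ratio of the 9 genes but ended all 4 calls (adjusted p = 1.00 for each), as it did nearly all calls on the arrays.

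**Figure D1:**
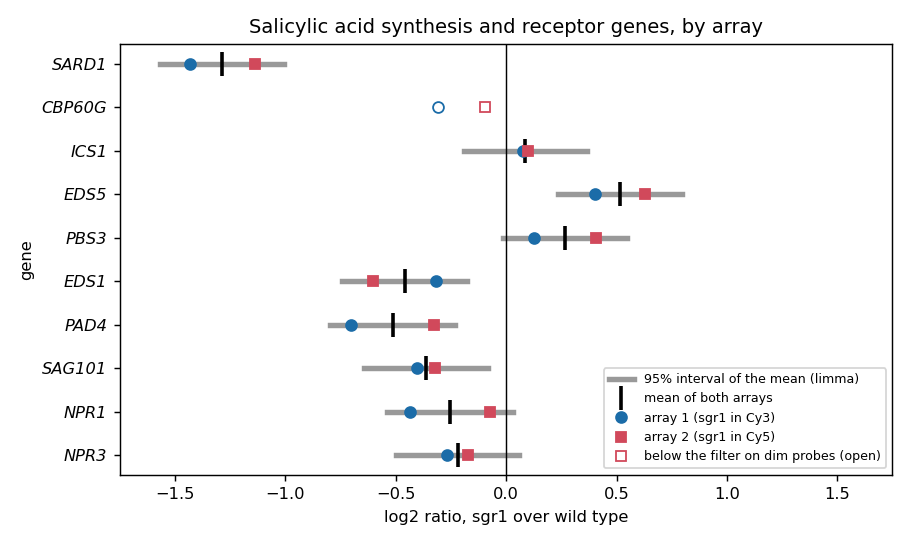
Log2 ratios of sgr1 over wild type for the 10 genes, with array 1 as circles, array 2 as squares, the mean as a tick and its 95% interval from limma as a grey bar. SARD1 lies farthest from 0 at -1.29, EDS5 alone lies above 0 with its whole interval, and CBP60G (open symbols) failed the filter on dim probes.

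Intensities below are in arbitrary units after normalisation, and are compared between genotypes for 1 gene at a time, apart from sums over marker lists, in which brighter probes weigh more. The normalisation adds an offset to every spot, which pulls the ratios of dim genes towards 0. Ratios are log2 of sgr1 over wild type, given as mean ± SD of the arrays (n = 2). Less RNA per cell and fewer cells of a type cannot be told apart in whole stem segments.

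SARD1 (AT1G73805) had normalised intensities of 102 and 96.2 in sgr1, against 274 and 212 in wild type on arrays 1 and 2. The genotypes did not overlap. The unprocessed spot was weak in sgr1, with a mean intensity of 72.7 over a local background of 63 on array 1 and 155 over 66.5 on array 2, against 383 over 66 and 147 over 51.5 in wild type. It was still well above background in all 4 channels. The ratio was -1.43 on array 1 and -1.14 on array 2, a mean of -1.29 ± 0.207, or 2.44-fold lower in sgr1 (limma, adjusted p = 3.44e-10). SARD1 was the only 1 of the 9 genes at least 2-fold lower on both arrays, which held for 0.75% of all genes, and it had rank 97 from the lowest among 19059.

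The size of the SARD1 difference depends on the handling of background. With a smaller offset of 16 the ratio was -1.79, and the log ratios of the scanner software, which carry no offset, gave -2.88 on array 1 and -2.01 on array 2, or 5.44-fold lower (adjusted p = 0.00163). The direction was the same under all 10 alternatives, with log2 ratios from -2.44 to -1.18, so 2.44-fold may understate or overstate the difference. By distance over both ratios, the 3 named genes most like SARD1 were NAC036 (-1.38 and -1.12, distance 0.052), MO1 (-1.37 and -1.20, distance 0.086) and MIOX2 (-1.46 and -1.23, distance 0.099). With 2 arrays this likeness says only that the ratios were alike in size.

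CBP60G (AT5G26920), the close partner of SARD1, was dim. Its normalised intensity was 74.2 and 71.1 in sgr1, against 91.9 and 75.9 in wild type. Wild type was well above background on 1 array and sgr1 on neither, so that no fold is given. Without the filter the arrays gave -0.31 and -0.09, and CBP60G did not pass (adjusted p = 0.333).

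CBP60A to CBP60F, of which CBP60A is a negative regulator of immunity, were all 6 measured, and none passed the test. Their ratios ran from -0.19 for CBP60F to 0.36 for CBP60C (adjusted p = 0.0708). This grouping was made after the values were seen.

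ICS1 (AT1G74710), the first enzyme of the pathway, had normalised intensities of 569 and 546 in sgr1, against 540 and 511 in wild type. The genotypes were nearly level. The ratio was 0.07 on array 1 and 0.10 on array 2, and the mean of 0.09 ± 0.016 did not pass (adjusted p = 0.746). The 95% interval of the mean ran from 0.875-fold to 1.29-fold of wild type, so a modest difference either way lies within it. The interval rests on the spread between arrays and does not bound the difference between plants of the genotypes. Its 2 probes, drawn from different transcripts of the gene, averaged 0.07 and 0.10. Within an array they disagreed in sign, at -0.06 and 0.21 on array 1 and at 0.20 and -0.01 on array 2.

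EDS5 (AT4G39030), the carrier that moves isochorismate out of the plastid, had 385 and 470 units in sgr1, against 291 and 304 in wild type. Both sgr1 values lay above both wild-type values. The ratio was 0.40 on array 1 and 0.63 on array 2, which is 1.43-fold higher in sgr1 (0.51 ± 0.16, adjusted p = 0.00564). EDS5 was the only 1 of the 9 genes that rose.

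PBS3 (AT5G13320), the amino acid conjugase of the GH3 family that acts after EDS5, had 3123 and 3473 units in sgr1, against 2859 and 2622 in wild type. Its ratio lay above 0 on both arrays, at 0.13 and 0.41. The mean of 0.27 ± 0.197 did not pass (adjusted p = 0.195), with a 95% interval from 0.99-fold to 1.46-fold.

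**Figure D2:**
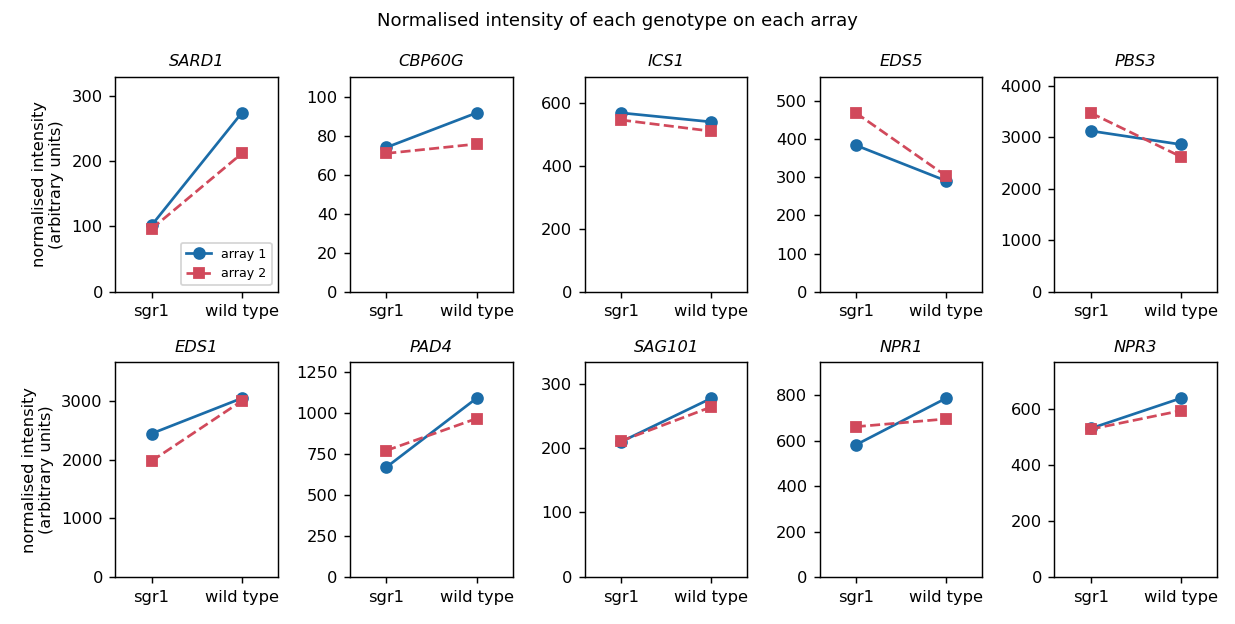
Normalised intensity in arbitrary units, from 0, of sgr1 (left) and wild type (right) for each of the 10 genes, with a line per array. The lines slope up to wild type for SARD1, CBP60G, EDS1, PAD4, SAG101, NPR1 and NPR3 and down to wild type for EDS5 and PBS3, and are nearly flat for ICS1.

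The 3 lipase-like proteins of the EDS1 family had ratios below 0 on both arrays, and 2 of the 3 genes passed the test. EDS1 (AT3G48090) had 2443 and 1976 units in sgr1, against 3047 and 3001 in wild type. Its ratio of -0.32 on array 1 and -0.60 on array 2 corresponds to 1.38-fold lower in sgr1 (-0.46 ± 0.201, adjusted p = 0.0145). PAD4 (AT3G52430), the partner of EDS1 in basal resistance, had 669 and 770 units in sgr1, against 1090 and 966 in wild type. PAD4 was 1.43-fold lower, with -0.70 on array 1 and -0.33 on array 2 (-0.52 ± 0.268, adjusted p = 0.00624). Neither gene passed with the log ratios of the scanner software, at -0.51 (adjusted p = 0.0982) for EDS1 and -0.56 (adjusted p = 0.085) for PAD4.

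SAG101 (AT5G14930), the partner of EDS1 in cell death signalling, had 210 and 211 units in sgr1, against 277 and 264 in wild type, as the mean of 2 probes. The mean ratio of -0.36 ± 0.0563 just missed the threshold (adjusted p = 0.0586). The probes disagreed by 0.51 on the log2 scale. The brighter one read 471 and 533 units in sgr1, against 838 and 704 in wild type, a ratio of -0.62 ± 0.305. The dimmer one read 93.4 and 83.3 units in sgr1, against 91.7 and 98.8 in wild type, a ratio of -0.11 ± 0.192, and was well above background in sgr1 on only 1 array. With the brighter probe alone SAG101 was called lower in sgr1 (adjusted p = 0.00144).

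EDS1B (AT3G48080), the neighbouring copy of EDS1, had 130 and 91.4 units in sgr1, against 249 and 194 in wild type. It was 2.02-fold lower (-1.02 ± 0.101, adjusted p = 1.28e-07), and the log ratios of the scanner software gave -2.09. The copies are near-identical in sequence and probes may not separate them, so which copy changed is uncertain. The gene on the other side of EDS1, the cytokinin response regulator RR5, also fell (-0.50 ± 0.169, adjusted p = 0.00765). Of 15 measured neighbours of the 10 genes, 1 rose and 3 fell, against 18.9% of all genes called. All 4 lay beside EDS1 or SAG101, those of SAG101 being AT5G14920 (-0.70 ± 0.262) and AT5G14940 (0.48 ± 0.155).

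Neither receptor gene passed the test. NPR1 (AT1G64280) had 582 and 662 units in sgr1, against 788 and 696 in wild type. The ratio was -0.44 on array 1 and -0.07 on array 2, and the mean of -0.25 ± 0.257 did not pass (adjusted p = 0.223). NPR3 (AT5G45110) had 531 and 528 units in sgr1, against 639 and 595 in wild type, a ratio of -0.22 ± 0.0684 (adjusted p = 0.303). The 95% intervals ran from 0.689-fold to 1.02-fold for NPR1 and from 0.708-fold to 1.04-fold for NPR3. NPR4, the closest relative of NPR3, gave a like value (-0.22 ± 0.176, adjusted p = 0.31), and NPR2 was well above background in no channel.

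Within the set, all 9 measured genes kept the sign of their ratio on both arrays, which 67.2% of all genes did. In all 9 the intensities of the genotypes did not overlap, with sgr1 below wild type in 6 and above it in 3. That held for 59.3% of all genes, with 29.7% below, so it is common on these arrays and says little by itself. SARD1 and EDS5 passed in opposite directions. The 3 EDS1 family genes and both receptor genes were below 0 on both arrays, but SAG101, NPR1 and NPR3 did not pass. The 2 of these 5 that were called lower, EDS1 and PAD4, stand against 8.98% of all genes called lower. So few genes do not show a shared fall.

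The other genes of the pathway were taken from 7 lists of 76 loci, 66 of them measured. Of these, 6 rose and 16 fell, which is 33.3% called against 18.9% of all genes, and their median was -0.07. The lists were chosen with earlier results of these data known, so this share is not independent of the data. Single lists are small, and the share called among the regulators of ICS1 (23.8%) or the EDS1 partners (16.7%) lay near that of all genes. With the log ratios of the scanner software the calls of WRKY46, EIL1, TGA4, ICS2, EDS5H, PAL2 and SARD4 were lost, and median centring ended them all. With the offset of 50 the lowest ratios were those of NIMIN1, NIMIN2, WRKY54 and PR5, but this order depends on the offset: with the scanner ratios PR2 (-3.18) and EDS1B (-2.09), both dim, lay below NIMIN1 (-1.76).

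**Figure D3:**
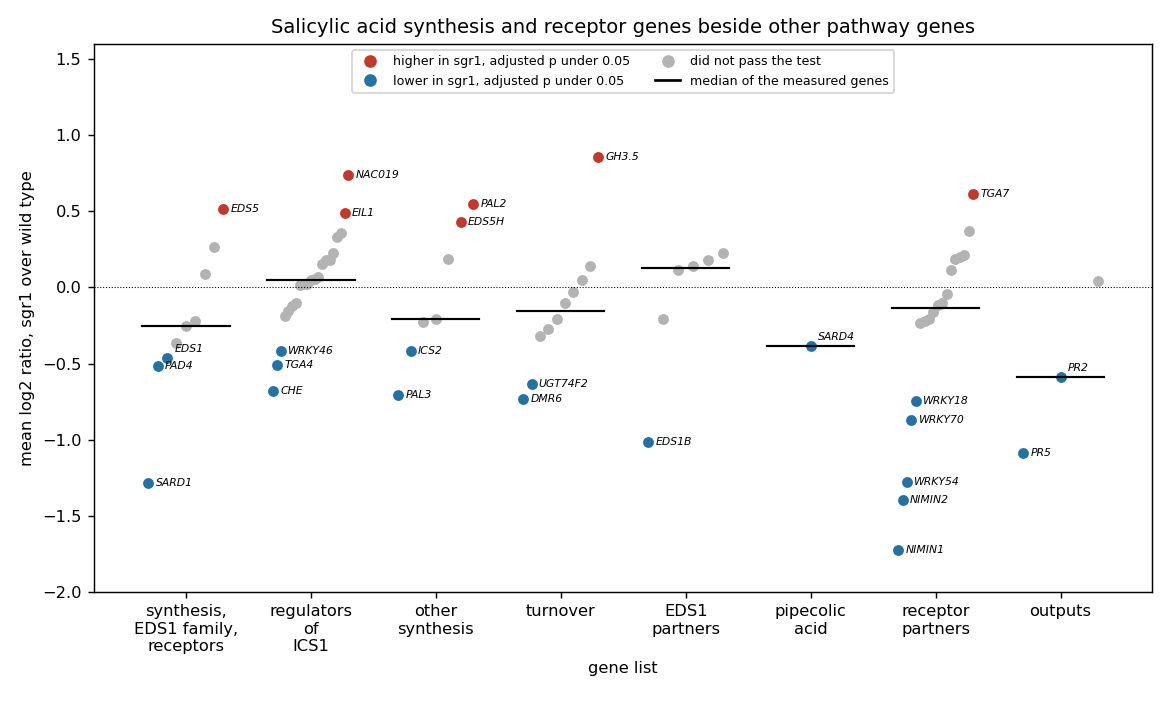
Mean log2 ratio of sgr1 over wild type for each measured gene (points), by list, the set described here at the left, with the list median as a black line and the called genes named. Called falls reach from SARD4 at -0.38 to NIMIN1 at -1.72, and called rises reach 0.86 for GH3.5, both with the offset of 50.

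Of 18 measured partners of the receptors, 1 rose and 5 fell (33.3% called, against 18.9% of all genes, median -0.14). NIMIN1, which binds NPR1 and limits its activity, had 2760 and 2030 units in sgr1, against 8032 and 7597 in wild type, and was 3.30-fold lower (-1.72 ± 0.257, adjusted p = 4.66e-14). NIMIN2, a further NPR1-binding protein, was 2.64-fold lower (-1.40 ± 0.108, adjusted p = 2.27e-11). NIMIN3 did not pass (-0.10 ± 0.279). The NIMIN1 and NIMIN2 genes are themselves induced by salicylic acid in wild type.

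WRKY54 and WRKY70, related transcription factors that respond to salicylic acid and hold back its synthesis, fell together. WRKY54 had 467 and 442 units in sgr1, against 1145 and 1062 in wild type (2.43-fold lower, -1.28 ± 0.0198, adjusted p = 3e-10). WRKY70 was 1.83-fold lower (-0.87 ± 0.108, adjusted p = 3.39e-06). WRKY18 also fell (-0.74 ± 0.112) and TGA7 rose (0.61 ± 0.0828), both named after their values were seen. Of the 7 TGA genes, the factors through which the receptors act, TGA7 rose, TGA4 fell (-0.51 ± 0.0379) and the other 5 did not pass. TGA2 had ratios of opposite sign on the arrays, at -0.44 and 0.21.

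Among 21 measured regulators of ICS1, 2 rose and 3 fell (median 0.05). NAC019, a repressor of ICS1, had 199 and 219 units in sgr1, against 124 and 127 in wild type, and was 1.67-fold higher (0.74 ± 0.0816, adjusted p = 6.7e-05). With the log ratios of the scanner software NAC019 was 2.82-fold higher (1.49, adjusted p = 0.003), above GH3.5 at 0.92. EIL1, an ethylene signalling factor that also represses ICS1, rose by less (0.49 ± 0.219, adjusted p = 0.0093). The falls were of CHE, a clock protein that activates ICS1 (-0.68 ± 0.0851, adjusted p = 0.000229), TGA4, and WRKY46 (-0.42 ± 0.19), an activator named after its values were seen. The other 16 did not pass.

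Of 7 other synthesis genes, 2 rose and 2 fell (57.1% called, against 18.9% of all genes, median -0.21). ICS2, the minor isochorismate synthase, had 254 and 240 units in sgr1, against 325 and 335 in wild type (-0.41 ± 0.0887, adjusted p = 0.028). EDS5H, the homologue of EDS5, rose as EDS5 did (0.43 ± 0.313, adjusted p = 0.0259), though the arrays differed, at 0.21 and 0.65, and the call was lost under 3 of 10 alternatives, among them no filter on dim probes (adjusted p = 0.0507). Phenylalanine ammonia-lyases open the other route to salicylic acid as well as lignin synthesis, and among them PAL2 rose (0.55 ± 0.0672) and PAL3 fell (-0.71 ± 0.0673).

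Of 10 measured genes for turnover of salicylic acid, 1 rose and 2 fell (30% called, against 18.9% of all genes, median -0.16). DMR6, a hydroxylase that inactivates the hormone, had 1342 and 1414 units in sgr1, against 2285 and 2302 in wild type (1.66-fold lower, adjusted p = 6.72e-05). UGT74F2, which forms the glucose ester, was 1.55-fold lower (-0.64 ± 0.16, adjusted p = 0.000586). GH3.5, which conjugates both auxin and salicylic acid to amino acids, rose (0.86 ± 0.00763, adjusted p = 4.43e-06). The 5 unmeasured genes of the list were DLO1, DLO2, UGT76B1, BSMT1 and MES4.

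The helper receptors ADR1, ADR1-L1, ADR1-L2, NRG1.1 and NRG1.2, which act with the EDS1 pairs, did not pass, with ratios between -0.21 and 0.23. Of the pipecolic acid genes, which feed the mobile signal that acts alongside salicylic acid, SARD4 was lower (-0.38 ± 0.0109, adjusted p = 0.0436), and the call was lost under 3 of 10 alternatives. ALD1 and FMO1 were well above background in no channel.

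Of 3 output genes, 2 fell (66.7% called, against 18.9% of all genes), a list too small to weigh by its share. PR5 had 1092 and 1174 units in sgr1, against 2409 and 2397 in wild type (2.12-fold lower, adjusted p = 2.55e-08). PR2 had 79.2 and 67.3 units in sgr1, not well above background on either array, against 122 and 98.3 in wild-type stems. The fitted level in sgr1 was 1.50-fold lower (limma, adjusted p = 0.00141), with a 95% interval from 0.548-fold to 0.808-fold of wild type. The log ratios of the scanner software gave -3.18. PR2 passed the filter only through wild type, where it was dim but well above background on both arrays. With both channels required above background 1 output gene, PR5, was left as called. PR1, the usual marker of the response, was near background in both genotypes (84.8 and 81.7 units in sgr1, 82.7 and 79.1 in wild type).

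**Figure D4:**
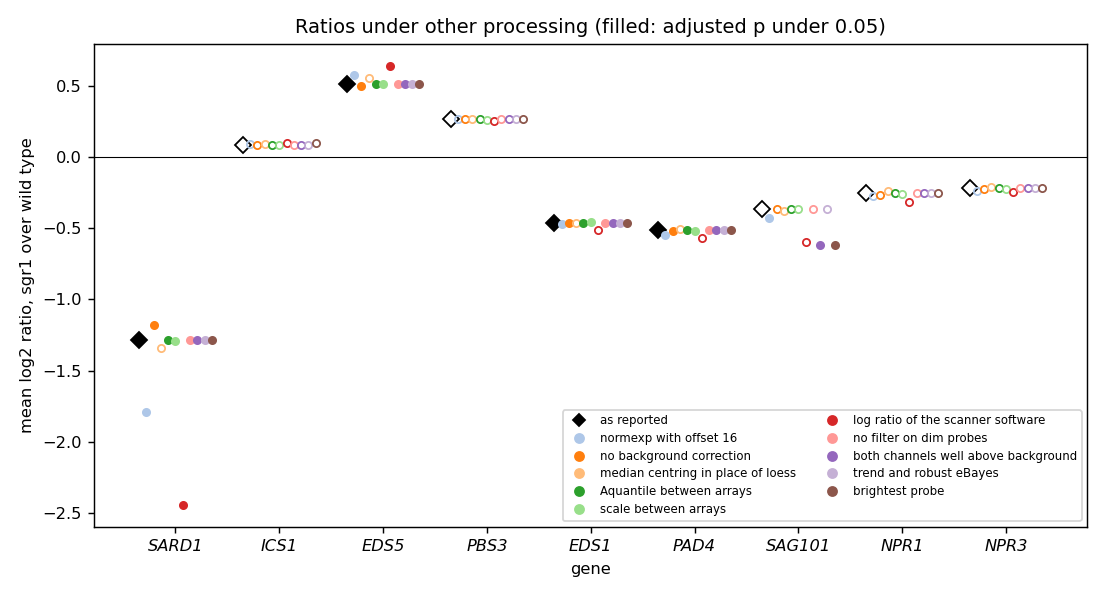
Mean log2 ratio of sgr1 over wild type of the 9 measured genes as reported (diamonds) and under 10 other ways of processing (circles), filled where the adjusted p was under 0.05. No ratio crossed 0, SARD1 moved most, to -2.44 with the log ratios of the scanner software, and SAG101 was called under 3 of the settings.

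All 5 stem markers (CER6, BP, SUC2, CESA7 and ATHB8) were well above background in every channel. CER6 (0.53 ± 0.294, limma, adjusted p = 0.00509) and CESA7 (0.40 ± 0.151, adjusted p = 0.0364) were higher in sgr1. SUC2 (0.37, adjusted p = 0.0574), BP (0.30, adjusted p = 0.124) and ATHB8 (-0.07, adjusted p = 0.801) did not pass. The list median was 0.37, and its genes summed to 48560 and 57566 units in sgr1, against 39802 and 38936 in wild type. CER6 alone gave 31160 and 37995 of these units in sgr1, and 24940 and 22792.5 in wild type. The sums therefore follow mostly CER6. Of 5 floral organ markers, SEP3 and AP1 were also well above background in every channel and AG and AP3 in none, as were the root markers PYK10 and NRT2.1. PI and RHD6 were well above background in 1 sgr1 channel each and in no wild-type channel. AP1 was higher in sgr1 (0.61 ± 0.187), with 113 and 159 units, against 81.0 and 95.1 in wild type. SEP3 did not pass (-0.04 ± 0.126). The 5 floral genes summed to 394 and 463 units in sgr1, against 370 and 393 in wild type. These sums include AG, AP3 and PI, which failed the filter on dim probes and lay near background. Of 4 endodermis markers, SCR, SHR and SGR5 fell and CASP1 did not pass. CASP1 was near background (81.8 and 78.3 units in sgr1, against 79.5 and 85.5 in wild type). It was well above background on only 1 array for each genotype, so its ratio says little. The 4 summed to 5866 and 5486 units in sgr1, against 9212 and 9411 in wild type. SHR, the brightest, gave 3667 and 3445 of these units in sgr1, and 5087 and 5211.5 in wild type. The arrays hold a single comparison of genotypes, so any gene lower in sgr1 was lower in the same samples as these sums. The part of these tissues in the differences reported was not tested.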

How the data were processed

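The members and the gene lists were chosen with earlier results of these data known. The deposited scanner files hold the mean spot intensity and the median local background intensity of each channel, from Agilent Feature Extraction 9.1.3.1 per the file headers. They also hold a background-subtracted, dye-normalised log10 ratio of Cy5 over Cy3, per the file headers, which the deposited value table repeats without a difference. No label or file header names a genome build.

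Intensities were corrected with normexp (offset 50) and normalised by loess within arrays in limma 3.58.1 under R 4.3.3, with control and outlier spots at weight 0. Outlier spots (96 and 177) were left out. Array 1 was turned in sign. Probes with at least 1 channel well above background on each array were kept and averaged per gene. Intensities per genotype are after loess and Aquantile. Ratios were tested against 0 with lmFit and eBayes, two-sided, with Benjamini-Hochberg adjustment over 19059 genes, 1 residual and 47.7 prior degrees of freedom. A lower bound was also computed for PR2 from the weakest value found well above background on each array. The PR2 values in sgr1 lay above that value, so the bound equalled the fitted fold and is not given. Between 59.2% and 66.5% of spots were well above background per channel, and none was saturated. The 2 arrays limit the precision.

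Genes named by rule were the 10 members, up to 4 called genes per list by size of change, fixed relatives and outputs (NPR2, NPR4, EDS1B, ICS2, PR1, PR2, PR5), and the 3 symbols nearest to the most changed member. Others were named beyond this rule, such as NIMIN3, TGA2, CBP60C, CBP60F, the helper receptors, neighbours of members and tissue markers. WRKY18, TGA7 and WRKY46 were named after their values were seen. Names of loci came from RefSeq's table of TAIR10.1 (18949 matched), which also gave gene order, or from the lists. The fit was tested on simulated data. Alternatives covered background correction, normalisation, starting values, filter, variance model, probes and single arrays.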

Additional observations from a re-analysis of the deposited data

How the results depend on the processing

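Of 10 alternatives 7 could move a ratio of the 9 measured genes, and none changed its sign. Aquantile scaling leaves ratios and p-values as they are, and of the other 81 tests 72 kept their side of the threshold, 6 lost a call and 3 gained one. Median centring in place of loess left 1 gene called higher and 1 lower in the whole table (115 differed 2-fold or more on each array, against 291), with 0 members and 0 other pathway genes called in either direction, although the ratios of SARD1 (-1.34), EDS5 (0.55), EDS1 (-0.47) and PAD4 (-0.50) stayed close. The log ratios of the scanner software gave 999 genes higher and 953 lower, against 1891 and 1711, and 705 that differed 2-fold or more on each array. They left 1 member called lower, SARD1, without EDS1 (-0.51) and PAD4 (-0.56), and 3 pathway genes called higher in place of 6. SAG101 was called lower with an offset of 16 (-0.43), with both channels required above background (-0.62) and with the brightest probe (-0.62). Single arrays, which allow no test, kept the sign of every member. Among 669 tests of the other pathway genes 31 lost a call, 1 gained one and none reversed. The reported test on the ratio within each array is itself paired by array. No paired analysis was possible beyond it because the arrays form 1 group. The causes were not tested. Dim spots limit CBP60G, SARD1 in sgr1 and the dimmer SAG101 probe.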
